A study of Mus musculus with 18 samples.

Results

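Skin treated with detergent A was compared with skin treated with PBS, phosphate-buffered saline, by bulk RNA sequencing of 6 libraries in each group. These 12 libraries were taken by their treatment label from the 18 of the series, and every gene was considered. The other 6 libraries, from skin treated with detergent B, entered the shared model and a comparison of the called genes. All groups were skin of C57BL/6 mice labelled 8-12 weeks old. The labels give neither the composition nor the dose of the detergent, nor the duration of treatment, the body site or the sex. Whether separate animals gave the separate libraries is not stated, and the p-values therefore reflect only the spread among the samples at hand, which may be technical. The series sets out to compare the expression of detergent-treated skin and PBS-treated skin.

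The outer barrier of skin is built as keratinocytes leave the basal layer, harden into corneocytes and are set in a lipid matrix. Involucrin, loricrin and small proline-rich proteins are cross-linked into the cornified envelope, filaggrin bundles keratin beneath it, and ceramides, cholesterol and fatty acids fill the space between the cells. Detergents are surfactants that can extract these lipids, and keratinocytes of irritated epidermis are known to make keratins 6 and 16 and cytokines of the IL-1 and IL-36 families.

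A total of 9 genes were higher and 23 were lower with detergent A among the 16836 tested, with a threshold of 0.05 on the p-value of edgeR's quasi-likelihood test after Benjamini-Hochberg adjustment over all genes. These are 0.0535% and 0.137% of the genes tested. The genes that rose included Degs2, which encodes a sphingolipid desaturase and hydroxylase that makes phytoceramides, the cytokine gene Il1f8 (IL-36 beta) and the redox enzyme gene Glrx. Those that fell were mostly of low to moderate level, led by the crystallin gene Cryaa, the transcriptional repressor gene Hic1 and Eva1b. At an unadjusted p under 0.05, 1691 genes were higher and 1467 lower, which are 10% and 8.71% of those tested. Adjusted p-values of the called genes lay between 0.0392 and 0.0497, and 23 genes shared the smallest.

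Levels are given in CPM, the counts of a gene scaled to the TMM-adjusted size of the library, and compare libraries rather than genes. The 6 values of each group did not overlap for 68 genes higher with detergent A and for 161 genes lower, 0.404% and 0.956% of those tested. Among the called genes, 5 of the 9 that rose and 17 of the 23 that fell did not overlap. The calls were close to the threshold: both counts were 0 without PBS replicate 1, 2 or 3, and likewise without replicate 1, 3 or 5 of detergent A and without replicate 5 or 6 of detergent B, which share the fit. They came to 8 genes in all without detergent A replicate 4, 21 without PBS replicate 4 and 2 without PBS replicate 5. Without PBS replicate 6 the total was 888 genes, without detergent A replicate 2 it was 847, without detergent A replicate 6 it was 769 and without detergent B replicate 4 it was 188. With only the 12 detergent A and PBS libraries in the fit, 12 of the 32 genes stayed past the threshold, 1 that rose (Gm17767) and 11 that fell, while Degs2, Il1f8, Glrx, Gm3776 and Twf1 had edgeR adjusted p-values of 0.0804, 0.0897, 0.0891, 0.0773 and 0.0795. In each of the 18 fits that left out a library, all 32 genes kept their direction and an unadjusted p under 0.05. They had been picked by small p-values in these same libraries, so this is no independent check of them.

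To show start regions of genes that rose and fell, the 250 bases before the RefSeq start (GRCm38.p6) are given for Degs2 (chr12:108702307-108702556, minus strand), Il1f8 (chr2:24152922-24153171, plus strand), Cited4 (chr4:120666313-120666562, plus strand) and Crocc (chr4:141060546-141060795, minus strand). For these 4 genes the RefSeq start lies 9, 11, 9 and 5 bases from the GENCODE start of the gene coordinates given below. Each is printed 5′ to 3′ on the strand of its gene. Capitals mark CG dinucleotides, the one motif searched, which reads the same on both strands.
Degs2: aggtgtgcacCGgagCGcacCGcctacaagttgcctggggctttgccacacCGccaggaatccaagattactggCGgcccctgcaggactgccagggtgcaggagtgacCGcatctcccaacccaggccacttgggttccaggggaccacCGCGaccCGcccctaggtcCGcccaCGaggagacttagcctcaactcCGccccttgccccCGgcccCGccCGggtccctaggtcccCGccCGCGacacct
Il1f8: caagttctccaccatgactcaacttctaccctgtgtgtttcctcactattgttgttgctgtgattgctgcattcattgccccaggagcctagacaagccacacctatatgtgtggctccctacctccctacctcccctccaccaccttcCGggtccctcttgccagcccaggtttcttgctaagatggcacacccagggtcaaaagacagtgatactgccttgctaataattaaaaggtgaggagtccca
Cited4: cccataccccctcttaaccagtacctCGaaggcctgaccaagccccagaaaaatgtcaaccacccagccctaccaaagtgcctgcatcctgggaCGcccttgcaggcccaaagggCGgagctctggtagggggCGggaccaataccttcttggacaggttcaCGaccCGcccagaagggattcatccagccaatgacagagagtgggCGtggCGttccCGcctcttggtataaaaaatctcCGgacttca
Crocc: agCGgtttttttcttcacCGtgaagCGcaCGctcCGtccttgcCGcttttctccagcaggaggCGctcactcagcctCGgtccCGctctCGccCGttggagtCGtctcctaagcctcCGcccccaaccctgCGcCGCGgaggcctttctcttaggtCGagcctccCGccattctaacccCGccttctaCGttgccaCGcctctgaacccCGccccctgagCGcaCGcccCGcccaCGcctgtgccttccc
The Degs2 window holds 18 CG, that of Il1f8 1, that of Cited4 10 and that of Crocc 26. Of 12165 tested genes with a RefSeq window of this length, 98.2% hold at least 1 CG, 39.4% at least as many as Degs2, 67.6% at least as many as Cited4 and 16.3% at least as many as Crocc. Windows were found for 8 of the 9 genes that rose, with a median of 2.5 CG, and for 18 of the 23 that fell, with a median of 17 CG, against 15 over all windows.

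Degs2 had the largest fold of the 7 protein-coding genes that rose. It lies on chromosome 12 from 108678711 to 108702315 (GRCm38, minus strand). Its lowest, median and highest levels were 39.1, 71.0 and 118 CPM with detergent A, against 13.1, 24.97 and 36.9 CPM with PBS. All 6 detergent A libraries were above all 6 PBS libraries, with replicate 3 the highest and replicate 2 the lowest. The increase was 2.91-fold, with a log2 fold change of 1.54 ± 0.28 (SE; edgeR adjusted p = 0.0392). Degs1, the sister desaturase that completes the common ceramide backbone, had 188, 321 and 442 CPM with detergent A, against 146, 189 and 236 CPM with PBS (lowest, median, highest). Its groups overlapped, and its log2 fold change of 0.66 ± 0.18 (SE) did not pass (edgeR adjusted p = 0.0854).

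Il1f8 (chromosome 2, 24153161 to 24160519, GRCm38) encodes IL-36 beta, an epithelial cytokine of the IL-1 family that acts on keratinocytes and dendritic cells. It had 54.0, 83.6 and 156 CPM with detergent A, against 31.8, 45.5 and 64.5 CPM with PBS (lowest, median, highest). Of the detergent A libraries, 5 of 6 were above every PBS library, and replicate 2 lay within the PBS range. The rise was 2.12-fold (log2 1.08 ± 0.22 SE, edgeR adjusted p = 0.0465). Its neighbours in the family, Il1f6 (IL-36 alpha) and Il1f9 (IL-36 gamma), had fold changes of 1.75 and 1.71, which did not pass (edgeR adjusted p = 0.0866 and 0.0722). Il1f6 had 20.2, 32.6 and 54.7 CPM with detergent A, against 16.2, 18.1 and 29.7 CPM with PBS. For Il1f9 the levels were 81.9, 138 and 206 CPM with detergent A, against 58.9, 73.6 and 113 CPM with PBS. In both genes 4 of 6 detergent A libraries lay above every PBS library, replicate 2 was again the lowest with detergent A and replicate 6 the highest with PBS.

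Glrx (chromosome 13, 75839868 to 75850154) encodes glutaredoxin, which removes glutathione from protein thiols. It had 92.2, 164 and 239 CPM with detergent A, against 52.8, 81.1 and 107 CPM with PBS (lowest, median, highest), and 5 of 6 detergent A libraries were above every PBS library. The rise was 2.03-fold (log2 1.02 ± 0.20 SE, edgeR adjusted p = 0.0482). Gm3776, a gene at low level between Gsta1 and Gsta2 in the glutathione S-transferase alpha cluster of chromosome 9 (78257129 to 78269166), had 1.31, 1.64 and 2.65 CPM with detergent A, against 0.231, 0.683 and 0.982 CPM with PBS. Its groups did not overlap, and the rise was 2.72-fold (log2 1.44 ± 0.27 SE, edgeR adjusted p = 0.0392). Gsta1, which encodes a transferase that conjugates glutathione to reactive compounds, had a fold of 2.79 but did not pass (edgeR adjusted p = 0.0548), and Gsta2 had a fold of 1.34. These genes are near-identical copies, and the sources used here do not give how multiply mapping reads were counted, so each is uncertain as a single gene.

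Twf1 (chromosome 15, 94577951 to 94589889) encodes twinfilin, which binds actin monomers and filament ends. It had 141, 187 and 259 CPM with detergent A, against 96.4, 115 and 136 CPM with PBS (lowest, median, highest), with no overlap. The increase was 1.63-fold (log2 0.70 ± 0.13 SE, edgeR adjusted p = 0.0392). Cpeb2 (chromosome 5, 43233170 to 43289724) encodes a protein that binds the 3′ ends of messenger RNA and tunes their translation. With detergent A it had 115, 161 and 191 CPM, against 91.1, 98.3 and 120.2 CPM with PBS, a 1.51-fold rise (log2 0.60 ± 0.11 SE, edgeR adjusted p = 0.0392) with 5 of 6 libraries above the PBS range. Zfp772 (chromosome 7, 7202117 to 7209998), a zinc finger gene, had 28.9, 37.2 and 49.4 CPM with detergent A, against 20.5, 23.7 and 32.5 CPM with PBS. It rose 1.53-fold (log2 0.62 ± 0.12 SE, edgeR adjusted p = 0.0482), and replicate 2 was the detergent A library inside the PBS range.

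The other genes that rose were long non-coding RNAs near the limit of the filter on low counts. 4930546K05Rik (chromosome 9, 42176592 to 42209231) had 0.422, 0.771 and 1.59 CPM with detergent A, against 0.137, 0.182 and 0.314 CPM with PBS, a 3.80-fold rise (log2 1.93 ± 0.36 SE, edgeR adjusted p = 0.0392). Gm17767 (chromosome 1, 51507086 to 51596718) had 0.626, 1.01 and 1.11 CPM with detergent A, against 0.223, 0.329 and 0.463 CPM with PBS, a 2.84-fold rise (log2 1.503 ± 0.23 SE, edgeR adjusted p = 0.0392). Neither gene's groups overlapped. Across the 9 genes that rose, detergent A replicate 2 lay above the PBS range for 5 and each of the other 5 detergent A libraries for all 9.

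**Figure D1:**
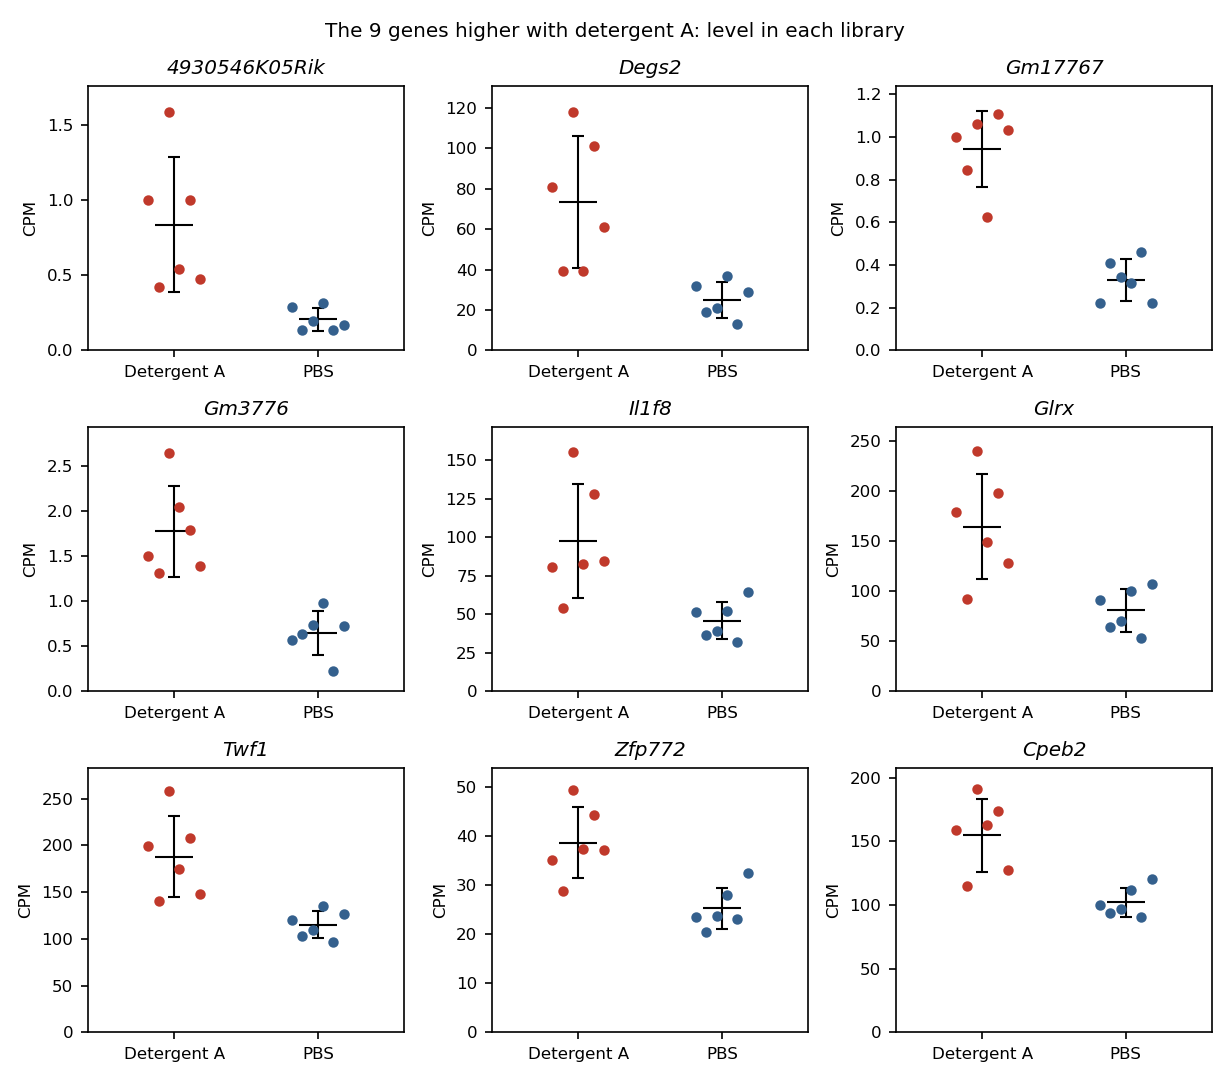
Level in CPM (vertical axis, from 0) of the 9 genes that rose with detergent A, in each of the 6 detergent A libraries (left, red) and 6 PBS libraries (right, blue). Within a group replicates run from 1 to 6, and the black bar and whiskers are the mean and SD. Degs2, Gm17767, Gm3776, Twf1 and 4930546K05Rik do not overlap between groups, and Il1f8, Glrx, Zfp772 and Cpeb2 do.

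The decreases were led by Cryaa (chromosome 17, 31677807 to 31681733), which encodes alpha-A crystallin, a small heat shock protein known from the lens. It had 0.278, 0.444 and 1.58 CPM with detergent A, against 1.37, 2.26 and 3.38 CPM with PBS (lowest, median, highest). Detergent A replicate 4, at 1.58 CPM, was the one library that reached the PBS range. The log2 fold change was -1.86 ± 0.36 (SE, edgeR adjusted p = 0.0407). Hic1 (chromosome 11, 75164565 to 75169519), a transcriptional repressor of growth and of stem and progenitor genes, had 2.18, 2.99 and 5.32 CPM with detergent A, against 4.91, 8.28 and 10.02 CPM with PBS, and fell by 1.23 ± 0.23 (SE) on the log2 scale (edgeR adjusted p = 0.0392). For Hic1 detergent A replicate 2 overlapped PBS. Eva1b (chromosome 4, 126147744 to 126149875), a membrane protein gene, had 5.39, 6.38 and 8.76 CPM with detergent A, against 10.3, 15.7 and 16.7 CPM with PBS. Its groups were apart, and it had a log2 fold change of -1.10 ± 0.19 (SE) (edgeR adjusted p = 0.0392).

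Transcriptional regulators made up several further decreases. Cited4 (chromosome 4, 120666572 to 120667820), a co-activator gene, had 9.32, 15.4 and 16.97 CPM with detergent A, against 20.4, 26.0 and 30.6 CPM with PBS, a log2 fold change of -0.88 ± 0.17 (SE, edgeR adjusted p = 0.0407). Hoxb2 (chromosome 11, 96350525 to 96354012), a homeobox gene of body position, had 6.96, 8.73 and 11.7 CPM with detergent A, against 11.2, 14.6 and 18.8 CPM with PBS, a log2 fold change of -0.74 ± 0.14 (SE, edgeR adjusted p = 0.0392). Cited4 did not overlap between groups, whereas for Hoxb2 detergent A replicate 2 reached above the lowest PBS library. Repin1 (chromosome 6, 48593883 to 48599082), a zinc finger gene, had 7.26, 9.76 and 11.7 CPM with detergent A, against 12.8, 16.03 and 17.4 CPM with PBS, with no overlap and a log2 fold change of -0.68 ± 0.12 (SE, edgeR adjusted p = 0.0392). Zfp219, Creb3l1 (a transcription factor held in the membrane of the endoplasmic reticulum), Pagr1a and Pcbp4 (an RNA-binding protein gene) also fell, with log2 fold changes of -0.59, -0.60, -0.43 and -0.63 (edgeR adjusted p = 0.0392, and 0.0407 for Creb3l1).

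Ptger4 (chromosome 15, 5206661 to 5244187), which encodes the prostaglandin E2 receptor EP4, had 11.9, 13.4 and 19.9 CPM with detergent A, against 22.0, 24.2 and 25.2 CPM with PBS, a log2 fold change of -0.70 ± 0.14 (SE, edgeR adjusted p = 0.0392). All 6 detergent A libraries were below all 6 PBS libraries. Metrn (chromosome 17, 25793221 to 25797136), which encodes the secreted factor meteorin, had 2.89, 3.47 and 4.14 CPM with detergent A, against 4.99, 6.42 and 8.14 CPM with PBS, a log2 fold change of -0.87 ± 0.16 (SE, edgeR adjusted p = 0.0392). Scarf2 (chromosome 16, 17797282 to 17808293), a scavenger receptor family gene, had 5.94, 9.57 and 12.5 CPM with detergent A, against 12.8, 16.7 and 20.2 CPM with PBS, a log2 fold change of -0.82 ± 0.16 (SE, edgeR adjusted p = 0.0414). Neither Metrn nor Scarf2 overlapped between groups, although the highest detergent A library for Scarf2 was close to the lowest PBS library. Col16a1 (a fibril-associated collagen), Sipa1 (a GTPase-activating protein), Map3k10 (a kinase of the JNK pathway) and Yif1b (a transport protein of the secretory pathway) had log2 fold changes of -0.57, -0.53, -0.65 and -0.44, and Ccdc92 had one of -0.60. Of these 5, all but Sipa1 did not overlap between groups.

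Crocc (chromosome 4, 141016637 to 141060550), which encodes rootletin of the ciliary rootlet, had 6.83, 7.35 and 8.44 CPM with detergent A, against 10.6, 14.2 and 15.7 CPM with PBS, with no overlap and a log2 fold change of -0.87 ± 0.17 (SE, edgeR adjusted p = 0.0414). Kctd17 (chromosome 15, 78428564 to 78439303), an adaptor for ubiquitin ligases that is also known for a role in cilia, had 13.3, 17.5 and 20.9 CPM with detergent A, against 23.1, 29.0 and 30.4 CPM with PBS, a log2 fold change of -0.71 ± 0.14 (SE, edgeR adjusted p = 0.0392). Selenom (chromosome 11, 3514684 to 3517351), a selenoprotein of the endoplasmic reticulum, had 12.1, 13.7 and 19.6 CPM with detergent A, against 19.1, 23.2 and 28.7 CPM with PBS, a log2 fold change of -0.70 ± 0.13 (SE, edgeR adjusted p = 0.0392). Kctd17 was apart between groups, and for Selenom detergent A replicate 2 overlapped PBS. Ddit4, an inhibitor of mTORC1 induced by stress and glucocorticoids, had 35.6, 41.6 and 46.3 CPM with detergent A, against 52.0, 61.0 and 76.0 CPM with PBS, and Sdf2l1, a chaperone cofactor of the endoplasmic reticulum, had 8.48, 9.77 and 11.2 CPM with detergent A, against 13.4, 14.0 and 15.7 CPM with PBS. Neither overlapped, and their log2 fold changes were -0.62 and -0.54 (edgeR adjusted p = 0.0392 for both).

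**Figure D2:**
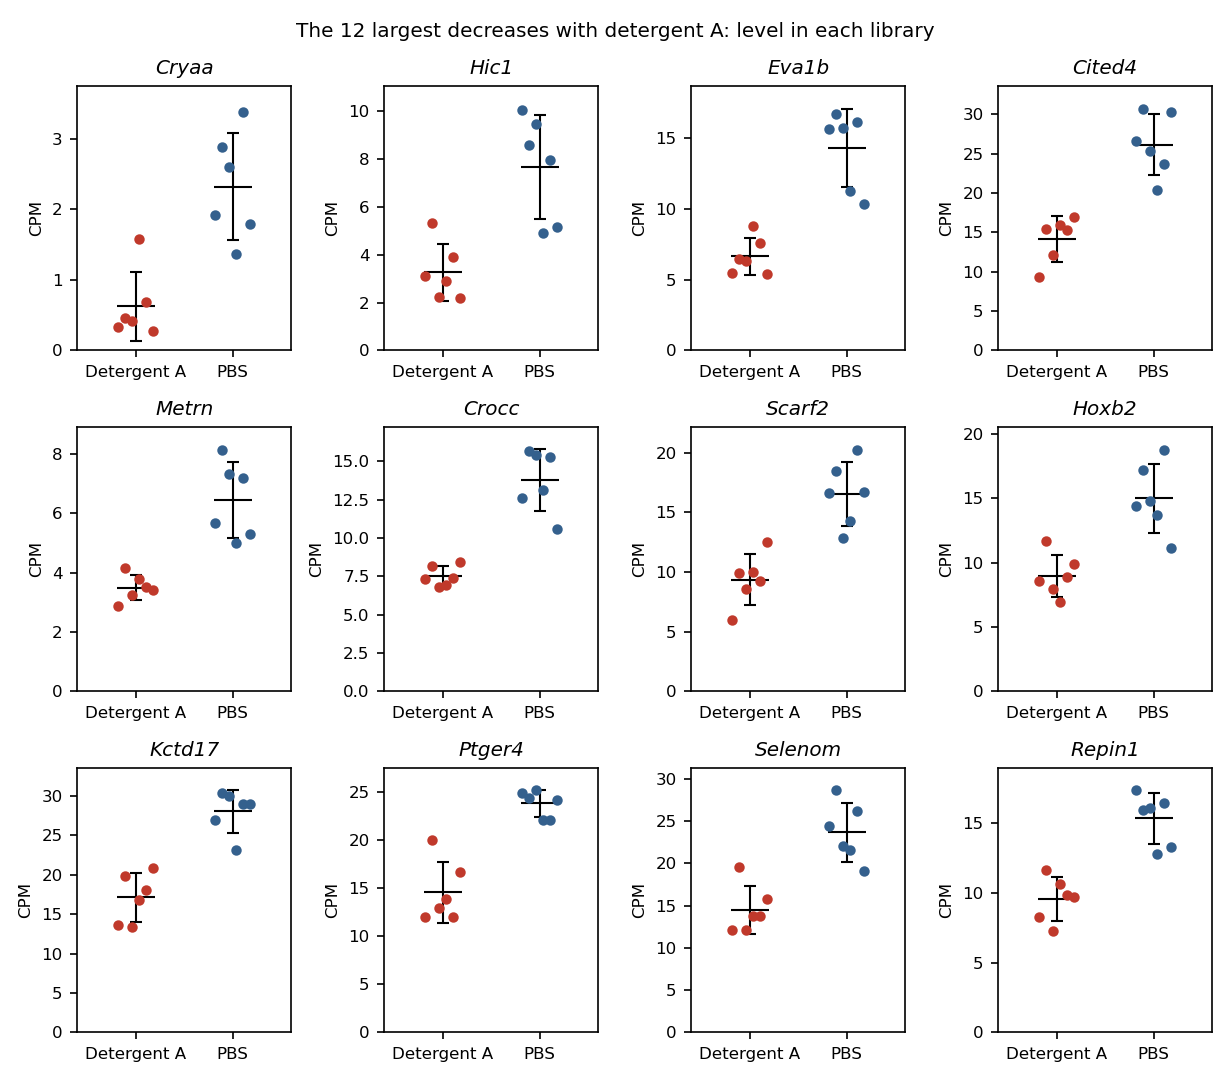
Level in CPM (vertical axis, from 0) of the 12 largest decreases with detergent A, in each of the 6 detergent A libraries (left, red) and 6 PBS libraries (right, blue). Within a group replicates run from 1 to 6, and the black bar and whiskers are the mean and SD. Cryaa, Hic1, Hoxb2 and Selenom each have 1 detergent A library within the PBS range, and the other 8 genes do not overlap.

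The genes that fell shared a high GC content that the call did not use. The median GC of the longest annotated transcript was 59.8% for the 23 genes that fell, 46.6% for the 9 that rose and 49.7% for all genes tested. Of the 23, 22 lay above the upper quartile of all genes, 54.5%, the exception being Ptger4 at 43.6%. Among the 9, 8 were below the median of all genes, the exception being Degs2 at 55.2%.

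Across 16808 genes with a transcript, levels with detergent A declined with GC in every library. The slope of log2 CPM, taken relative to each gene's mean over the 12 libraries, was -0.069 ± 0.0509 per 10 percentage points of GC with detergent A, against 0.069 ± 0.0369 with PBS (SD, n = 6 each). The 2 means mirror each other because the values are centred on the 12 libraries. The slopes ran from -0.159 to -0.0102 with detergent A and from 0.0148 to 0.111 with PBS, so the groups did not overlap. The difference was -0.138, with a two-sided exact permutation p of 0.00216, the smallest that the 924 assignments of 6 against 6 can give. It lay between -0.120 and -0.150 with any 1 of the 12 libraries left out (exact permutation p = 0.00433). The test was chosen after earlier results of these data showed calls that depended on a GC correction. Its p-values are thus not those of a question set beforehand. Detergent A replicate 1 had the steepest decline and replicate 4 the shallowest, and PBS replicate 6 had the PBS slope nearest to 0.

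By deciles of genes ordered by GC, the median log2 fold change was 0.07 in the lowest decile, where 63.6% of genes were higher with detergent A, and -0.20 in the highest decile, where 21.0% were. The highest decile held 17 of the 23 genes that fell and 87 of the 161 genes whose groups were apart and lower with detergent A, and the decile below it held 4 and 37. Genes whose groups were apart and higher with detergent A numbered 52 of 68 in the lowest 4 deciles and 0 in the highest 2. Hair keratin levels, described below, also differed between libraries. In detergent A replicates 1 to 6 the hair keratins score was -0.90, 0.58, -3.78, -6.29, -6.36 and -1.12. The GC slopes of these libraries were -0.159, -0.0849, -0.0694, -0.0102, -0.0503 and -0.0404. In PBS replicates 1 to 6 the score was 1.69, 0.79, 0.42, -0.15, 0.34 and -3.10. The slopes there were 0.111, 0.0864, 0.0888, 0.0331, 0.0799 and 0.0148. The part of hair keratin levels in the GC trend was not tested. On the scale of the same 12 libraries, the detergent B libraries had slopes from -0.135 to 0.0443, given as a description. The labels give no RNA quality value and no library batch for these samples. After a correction of each library for GC in 20 bins, no gene passed by edgeR (2706 had an unadjusted p under 0.05). All 32 genes kept their direction and an unadjusted p under 0.05, but they were picked by p from these same libraries.

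**Figure D3:**
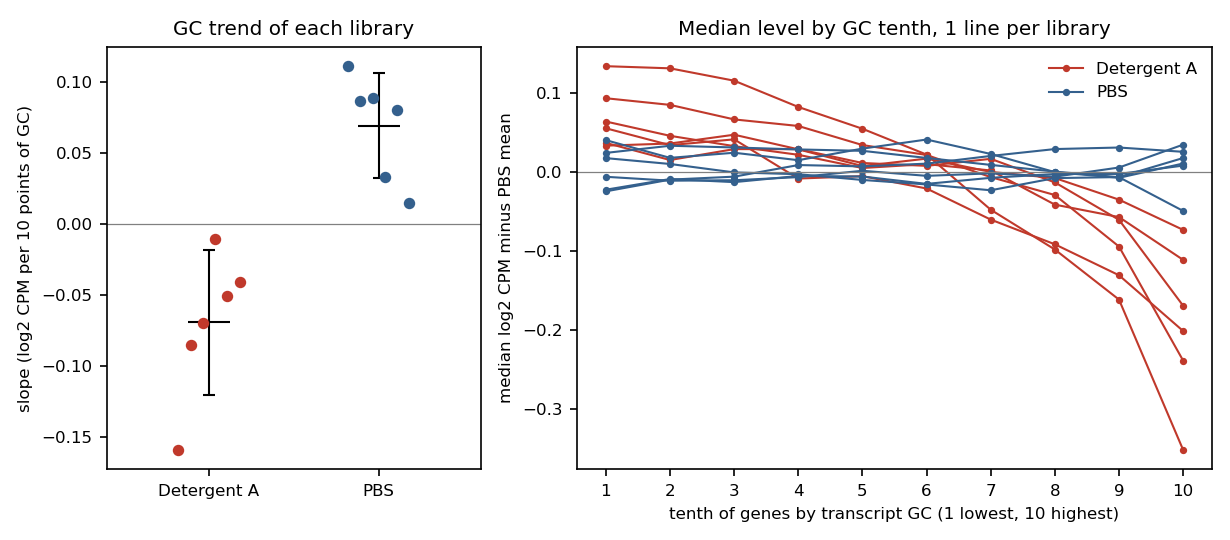
Left, slope of log2 CPM on transcript GC (per 10 percentage points, relative to each gene's mean over 12 libraries) in each detergent A library (left, red) and each PBS library (right, blue), with mean and SD. Right, median log2 CPM minus the PBS mean over genes in each decile of GC, 1 line per library; all 6 detergent A lines end below all 6 PBS lines in the highest decile.

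The 12 libraries also differed widely within groups. The first principal component held 48.3% of their variance, with scores of -1.69, 31.5, -52.3, -64.2, -57.2 and 13.6 in detergent A replicates 1 to 6, against 38.9, 37.4, 30.7, 16.7, 41.9 and -35.4 in PBS replicates 1 to 6. The scores leaned by treatment and overlapped: detergent A replicate 2 lay among the PBS libraries, and PBS replicate 6 below 3 of the 6 detergent A libraries. Of 20 hair keratin genes 19 were tested, and their summed level was 13.4, 762 and 4939 CPM with detergent A, against 165, 4993 and 6971 CPM with PBS (lowest, median, highest). The mean log2 CPM of these genes, relative to the PBS mean, was -3.78, -6.29 and -6.36 in detergent A replicates 3, 4 and 5 and -3.10 in PBS replicate 6, and between -1.12 and 1.69 in the other 8 libraries. Adding the hair keratins score to the model left 0 calls by edgeR (1822 genes at an unadjusted p under 0.05). The 32 genes kept their direction and an unadjusted p under 0.05, but again as genes picked from these same libraries. Hair cycle stage is not given in the labels, and its part in the results was not tested. Keratinocyte genes, which define the labelled tissue, were abundant, with the basal keratin gene Krt14 at 3447, 9162 and 12135 CPM with detergent A, against 3756, 4663 and 6374 CPM with PBS. Within groups the spread was wider with detergent A, with a median SD of 0.27 log2 CPM against 0.21 with PBS, and 70.2% of genes had the larger SD with detergent A.

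Gene lists are described by their counts and their median log2 fold change, which over all genes tested was -0.01 with 48.4% of genes positive. List counts at an unadjusted p under 0.05 by edgeR stand against 10% of all genes higher and 8.71% lower. In the main edgeR fit, members other than the called ones named above did not pass over all genes tested. Other settings, given at the end, called more or fewer genes. In a bulk sample fewer cells of a type and less RNA per cell cannot be told apart.

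Lists of barrier formation leaned upward with detergent A, with few members past the threshold. Of 26 genes of ceramide and acylceramide synthesis, 25 had a positive log2 fold change and 24 an unadjusted p under 0.05 in that direction, against 10% of all genes, and 1 passed, Degs2. Their median was 0.57, and 0.28 with the hair score as a covariate. Ugcg, which encodes glucosylceramide synthase, had 109.6, 155 and 206 CPM with detergent A, against 99.3, 102 and 119 CPM with PBS, and Cers2, at the lower end of the list, had a log2 fold change of -0.07. Ugcg was above the PBS range in 5 of 6 detergent A libraries and just missed the threshold (edgeR adjusted p = 0.0548). Of 23 cholesterol synthesis genes 21 were positive, with a median of 0.35, a highest log2 fold change of 0.58 (Idi1) and 0 past the threshold by edgeR. Their median was 0.12 with the hair score as a covariate. Ebp, a sterol isomerase gene, and Insig1, a regulator of the pathway, had the smallest p-values, with folds of 1.43 and 1.28 (edgeR adjusted p = 0.0934 and 0.11).

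Of 30 cornified envelope genes 24 were positive and 0 passed by edgeR, with a median of 0.48 and 17 at an unadjusted p under 0.05. Ivl (involucrin) had 268, 367 and 611 CPM with detergent A, against 182, 223 and 288 CPM with PBS, a fold of 1.78 (edgeR adjusted p = 0.0548). Asprv1, the protease that processes filaggrin, had 1956, 3037 and 4781 CPM with detergent A, against 1452, 1581 and 2559.8 CPM with PBS, a fold of 1.80 (edgeR adjusted p = 0.0577). In Ivl 5 and in Asprv1 4 of 6 detergent A libraries were above every PBS library. Flg (filaggrin) had 643, 1260.0 and 1984 CPM with detergent A, against 412, 765 and 1117 CPM with PBS, with overlap (edgeR adjusted p = 0.18). Lor (loricrin) had 213, 710.4 and 886 CPM with detergent A, against 529.9, 592 and 1218 CPM with PBS, with each range reaching past the other at one end (log2 fold change -0.20 ± 0.30 SE, edgeR adjusted p = 0.752). The sign for Lor turned when PBS replicate 6, its highest PBS library, was left out (0.0201) and with the GC correction (0.0149). The list ran from -1.87 for Tchh, the trichohyalin gene of the hair root sheath, to 1.81 for Rptn, the repetin gene, and its median was 0.17 with the hair score as a covariate.

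The small proline-rich list had the highest median of all lists, 1.99, with 14 of 14 tested genes positive, 12 at an unadjusted p under 0.05 and 0 past the threshold by edgeR. Sprr2h had 77.6, 210.3 and 347 CPM with detergent A, against 28.5, 60.9 and 93.4 CPM with PBS (edgeR adjusted p = 0.0548). Sprr2d had 7.97, 37.6 and 87.6 CPM with detergent A, against 4.94, 10.3 and 12.9 CPM with PBS (edgeR adjusted p = 0.0613). For both, 4 of 6 detergent A libraries were above the PBS range. Relative to the PBS mean the list score was 2.64, 2.71, 1.25 and 1.88 in detergent A replicates 1, 3, 4 and 5, but 0.21 in replicate 2 and -0.25 in replicate 6. The Sprr2 genes are near-identical and are uncertain as single genes.

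Of 20 late cornified envelope genes 19 were positive, with a median of 0.31, or -0.07 with the hair score as a covariate. Their summed level was 1617, 4296 and 4679 CPM with detergent A, against 2325, 2644 and 5039 CPM with PBS (lowest, median, highest). No detergent A sum was above every PBS library, and that of replicate 1 was below them all. Lce3e and Lce3c, of the group known to be induced by barrier injury, had folds of 4.78 and 2.98 (edgeR adjusted p = 0.0613 and 0.0722). The kallikreins and protease inhibitors, which set the pace of corneocyte shedding, had 23 of 24 tested genes positive, 20 at an unadjusted p under 0.05, a median of 0.87, and 0.57 with the hair score as a covariate. Klk9, a kallikrein gene, had 144, 212 and 384 CPM with detergent A, against 89.3, 117 and 148 CPM with PBS, with 5 of 6 above the PBS range (edgeR adjusted p = 0.0548). BC117090, a stefin A family gene and uncertain as a single gene, had 2.58, 8.40 and 17.2 CPM with detergent A, against 0.559, 1.77 and 3.17 CPM with PBS (edgeR adjusted p = 0.0548).

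The 4 stress keratins had a median of 1.56. Krt16 had 172, 2408 and 4840.2 CPM with detergent A, against 309, 579 and 1439 CPM with PBS, and Krt6a 156, 2194 and 4871 CPM with detergent A, against 378, 576 and 1585 CPM with PBS. In both genes detergent A replicate 1 was the highest library and replicate 6 was below every PBS library, and neither passed (edgeR adjusted p = 0.162 and 0.22). Krt17 had a log2 fold change of -0.22.

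Junction lists had medians nearer to 0 than the barrier and stress keratin lists above. Of 17 desmosome and adherens junction genes 15 were positive, with a median of 0.28 and 0 called by edgeR (7 at an unadjusted p under 0.05). Dsg1b and Dsc1, cadherins of the upper epidermis, had folds of 2.02 and 1.69 (edgeR adjusted p = 0.0548 and 0.0842). Of 22 tight junction genes 8 were positive, with a median of -0.09, and 4 were lower at an unadjusted p under 0.05. The log2 fold changes of this list ran from -1.17 for the claudin gene Cldn7 to 0.21 for Tjp1. Cldn1, the main claudin of the epidermal tight junction, had 357, 382 and 427 CPM with detergent A, against 329, 353 and 382 CPM with PBS. Ocln, the occludin gene, had 29.97, 35.2 and 38.1 CPM with detergent A, against 29.2, 31.6 and 39.2 CPM with PBS, and the scaffold gene Tjp1 had 112, 132 and 152 CPM with detergent A, against 109, 117 and 119.8 CPM with PBS. All of these overlapped (edgeR adjusted p = 0.318, 0.549 and 0.29). Magi1, a scaffold gene, and Cldn3, a claudin at low level, had folds of 0.671 and 0.619 (edgeR adjusted p = 0.113 and 0.137). Of 14 basal keratinocyte and anchoring genes 11 were positive, with a median of 0.18, with the smallest p-values for the integrin gene Itga6 and Krt14 at 1.53-fold and 1.74-fold (edgeR adjusted p = 0.145 and 0.15), and the median was 0.0046 with the hair score as a covariate and 0.38 without PBS replicate 6.

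**Figure D4:**
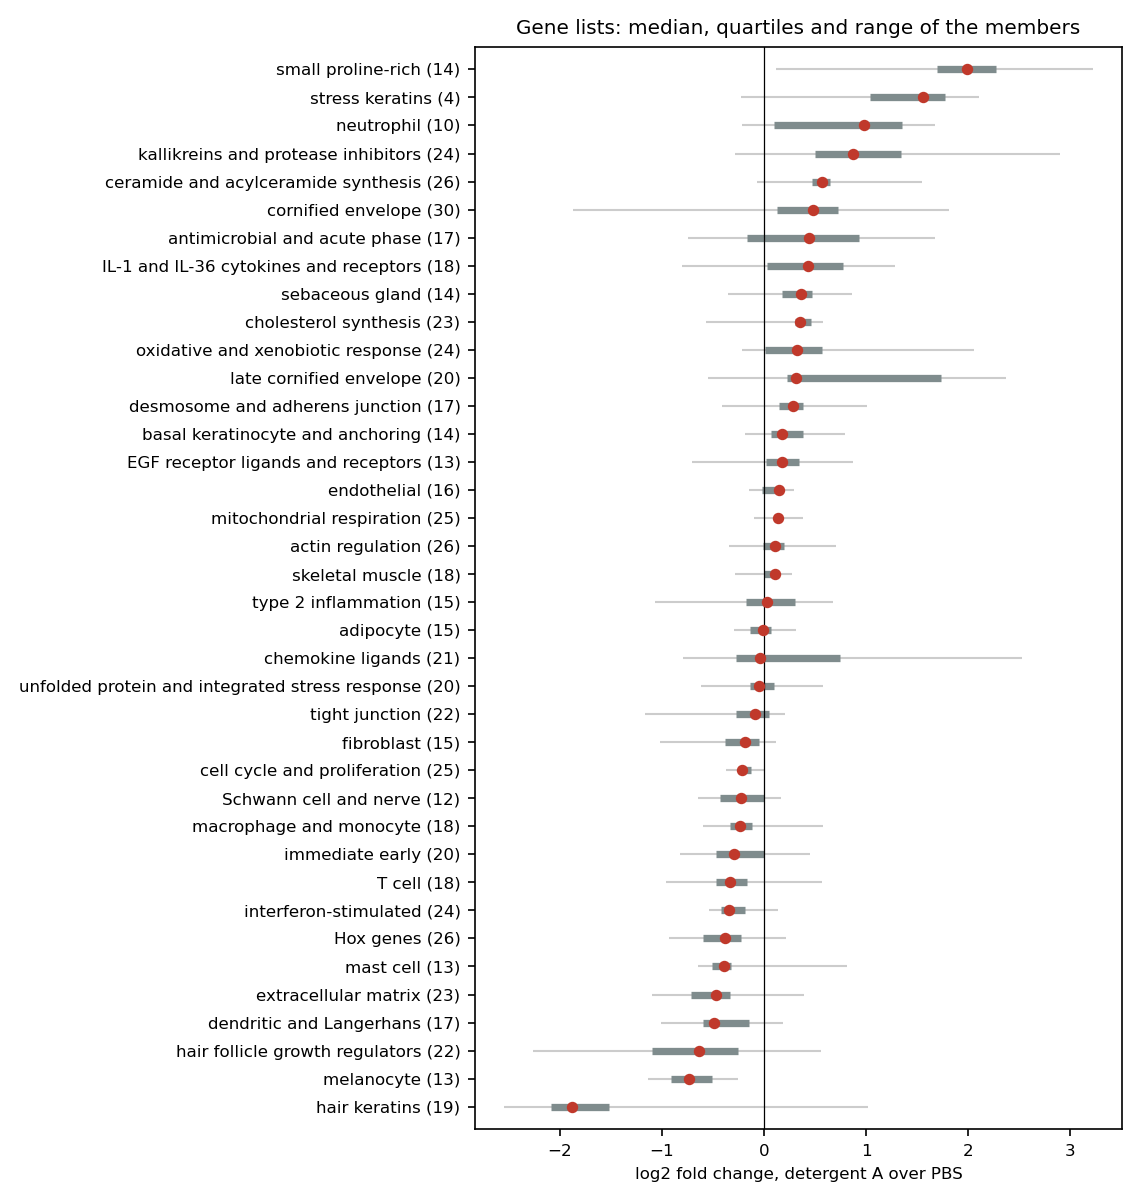
Log2 fold change of detergent A over PBS (horizontal axis) for the members of 38 gene lists, with the number of tested members in brackets. The red point is the list median, the thick bar the quartiles and the thin line the range; medians run from 1.99 for small proline-rich genes to -1.88 for hair keratins, against -0.01 for all genes.

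Among 18 IL-1 and IL-36 cytokines and receptors 15 were positive, with a median of 0.44 and 1 past the threshold, Il1f8. Il33, an alarmin stored in the nucleus, had 25.8, 196 and 314 CPM with detergent A, against 46.4, 62.0 and 147 CPM with PBS, and overlapped (edgeR adjusted p = 0.16). Il1b had 2.70, 6.34 and 59.9 CPM with detergent A, against 5.25, 7.56 and 11.7 CPM with PBS, so the medians ran against the fitted fold of 2.30 (edgeR adjusted p = 0.328). Its log2 fold change was 0.34 without detergent A replicate 1, against 1.20 with it. Il1f10, an IL-1 family gene known as IL-38, had the lowest log2 fold change of the list, -0.80. Of 15 tested type 2 inflammation genes 8 were positive, with a median of 0.03. Tslp, an epithelial cytokine that activates dendritic cells, had 1.61, 2.46 and 4.93 CPM with detergent A, against 1.57, 2.07 and 6.25 CPM with PBS (log2 fold change -0.07 ± 0.39 SE, edgeR adjusted p = 0.946), and its sign turned without PBS replicate 5 (0.34). The receptor genes Crlf2, which binds TSLP, and Il13ra1 had folds of 0.555 and 1.43 (edgeR adjusted p = 0.0903 and 0.118).

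Levels of neutrophil markers differed between libraries more than between groups. The marker list shares S100a8 and S100a9 with the antimicrobial and acute phase list, and Il1b with the list of IL-1 and IL-36 cytokines and receptors. Of 16 markers 10 were tested, 9 of them positive, with a median of 0.98, and 0.46 without detergent A replicate 1. Their summed level was 33.8, 102 and 332 CPM with detergent A, against 41.5, 70.7 and 99.7 CPM with PBS, and detergent A replicates 1 and 4 had scores of 1.69 and 1.93 above the PBS mean while replicates 2 and 6 had -0.88 and -1.14. S100a8 and S100a9, which encode the subunits of calprotectin, had 1.90, 14.3 and 75.1 CPM and 4.76, 30.5 and 129.5 CPM with detergent A, against 3.79, 8.52 and 14.3 CPM and 4.63, 14.4 and 25.5 CPM with PBS. In each, 3 of 6 detergent A libraries were above every PBS library, and neither passed (edgeR adjusted p = 0.335 and 0.228). Cxcr2, the chemokine receptor of neutrophils, had a fold of 2.04 (edgeR adjusted p = 0.121). Of 21 chemokine ligands 8 were positive, with a median of -0.04. Cxcl2, a neutrophil attractant, was at 35.7 CPM in detergent A replicate 1 and between 0.380 and 3.79 CPM in the other detergent A libraries, against 1.01 to 1.45 CPM with PBS. Cxcl14, a chemokine of resting epithelium, had a fold of 0.575 (edgeR adjusted p = 0.224). Of 17 tested antimicrobial and acute phase genes 12 were positive, with a median of 0.45, and the smallest p-values were those of Defb1 and Pglyrp4 at 1.93-fold and 1.39-fold (edgeR adjusted p = 0.0604 and 0.114).

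Markers of other immune cells leaned lower, with no member called by edgeR. Of 17 dendritic and Langerhans cell markers 15 were negative and 9 had an unadjusted p under 0.05, against 8.71% of all genes, with a median of -0.49. Their summed level was 737, 920.0 and 1389 CPM with detergent A, against 1006, 1230.3 and 1556 CPM with PBS, and 4 of 6 detergent A libraries were below every PBS library. H2-Ab1, an MHC class II gene, had 75.6, 108 and 173 CPM with detergent A, against 126, 173 and 235 CPM with PBS, and Ciita, the class II transactivator gene, 5.35, 6.57 and 10.3 CPM with detergent A, against 7.58, 10.9 and 13.9 CPM with PBS (edgeR adjusted p = 0.109 and 0.125). With the hair score as a covariate the median was -0.49. Of 18 tested T cell markers 17 were negative, with a median of -0.33. The adhesion gene Cd2 and the surface receptor gene Cd5 went opposite ways, at 0.514-fold and 1.48-fold (edgeR adjusted p = 0.0842 and 0.149). Without PBS replicate 6 the T cell median was -0.13. For 18 macrophage and monocyte markers the median was -0.23 with 15 negative, and -0.07 without detergent A replicate 3, and for 13 mast cell markers -0.39 with 11 negative. Cd14 had a fold of 1.49 and Mrgprb1 and Tpsb2 folds of 0.667 and 0.739 (edgeR adjusted p from 0.158 to 0.408). Of 24 interferon-stimulated genes 22 were negative, with a median of -0.34, and 0 had an unadjusted p under 0.05. Oasl1 and Isg15, both antiviral genes, had folds of 0.696 and 0.706 (edgeR adjusted p = 0.357 and 0.452). The list's median was 0.02 without PBS replicate 6, whose score was 1.12 above the PBS mean.

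Among 24 oxidative and xenobiotic response genes 18 were positive, with a median of 0.32 and 1 past the threshold, Glrx. The upper end was Gsta4, with 7.10, 55.3 and 186 CPM with detergent A, against 6.49, 10.7 and 32.6 CPM with PBS, and a wide overlap (edgeR adjusted p = 0.127). Of 20 genes of the unfolded protein and integrated stress response 8 were positive, with a median of -0.05, and 2 fell, Ddit4 and Sdf2l1. Trib3, a pseudokinase gene of the stress response, had the highest log2 fold change, 0.58. Of 20 immediate early genes 15 were negative, with a median of -0.29, and Jun and Jund, subunits of AP-1, had folds of 0.720 and 0.564 (edgeR adjusted p = 0.0999 and 0.108). Of 26 actin regulation genes 19 were positive, with a median of 0.11 and 1 past the threshold, Twf1; Dstn, which encodes the actin-severing protein destrin, had a fold of 1.41 (edgeR adjusted p = 0.0827). Of 25 mitochondrial respiration genes 24 were positive, with a median of 0.14, and Uqcrc2 and Ndufa4 had folds of 1.16 and 1.30 (edgeR adjusted p = 0.0985 and 0.132). For 13 genes of EGF receptor ligands and receptors the median was 0.17, and Erbb2 and Nrg4 had folds of 0.871 and 1.27 (edgeR adjusted p = 0.24 and 0.249).

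Hox genes, which mark position along the body, were lower in 24 of 26 tested, with a median of -0.38, and 1 passed, Hoxb2. At an unadjusted p under 0.05 by edgeR 14 were lower, against 8.71% of all genes. Hoxd3 had 1.80, 2.65 and 3.63 CPM with detergent A, against 4.13, 4.94 and 7.03 CPM with PBS, with no overlap (log2 fold change -0.93 ± 0.22 SE, edgeR adjusted p = 0.0614). The summed level of the list was 244, 276 and 349.9 CPM with detergent A, against 344, 369.6 and 402 CPM with PBS, and 5 of 6 detergent A libraries were below every PBS library. The list kept its median after the GC correction, at -0.38, and had -0.27 with the hair score as a covariate. The labels give no body site for these libraries, and its part in the Hox levels was not tested.

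Dermal and follicular lists were also lower in most members. Of 23 extracellular matrix genes 22 were negative and 10 had an unadjusted p under 0.05, with a median of -0.47, and -0.20 with the hair score as a covariate. Col1a1, the main fibrillar collagen gene, had 433, 696 and 1436 CPM with detergent A, against 990.2, 1717 and 2340.0 CPM with PBS, and Col6a2 191, 222 and 404 CPM with detergent A, against 253, 468 and 549 CPM with PBS (edgeR adjusted p = 0.0595 and 0.0722). In both genes 4 of 6 detergent A libraries were below the PBS range. For 15 fibroblast markers, some of them collagens of the same list, the median was -0.19 with 14 negative; Col1a2 had a fold of 0.601 (edgeR adjusted p = 0.13). The hair keratins had a median of -1.88 with 18 of 19 negative, hair follicle growth regulators -0.64 with 18 of 22 negative, and melanocyte markers -0.74 with 13 of 13 negative. Relative to the PBS mean, the melanocyte score was -1.28, -2.74 and -2.24 in detergent A replicates 3, 4 and 5 and -2.52 in PBS replicate 6. It was 0.05, 0.61 and -0.02 in detergent A replicates 1, 2 and 6. In the hair keratins list Krt82 and Krt84 had folds of 0.222 and 2.02, among the growth regulators Bmp4 and Sp6 had 0.688 and 0.641, and among melanocyte markers Sox10 and Kit had 0.729 and 0.701 (edgeR adjusted p from 0.0584 to 0.258). With the hair score as a covariate the medians were 0.01 for the growth regulators and 0.37 for the melanocyte markers; for the hair keratins, whose mean is that score, the median of 0.03 is fixed by construction. Cell cycle genes were negative in 25 of 25, with a median of -0.21, 0 at an unadjusted p under 0.05, 0.20 with the hair score as a covariate and -0.09 without detergent A replicate 4; Plk1 and Mcm2 had folds of 0.772 and 0.801 (edgeR adjusted p = 0.329 and 0.413).

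Sebaceous gland markers were positive in 12 of 14, with a median of 0.36, and 0.10 with the hair score as a covariate. Soat1, which esterifies cholesterol, and Elovl3, a fatty acid elongase, had folds of 1.55 and 1.81 (edgeR adjusted p = 0.0586 and 0.0976). Markers of adipocytes, skeletal muscle, endothelium and nerve had medians of -0.01, 0.11, 0.14 and -0.22, with no member called by edgeR and 1, 0, 0 and 3 of 15, 18, 16 and 12 at an unadjusted p under 0.05. Their members with the smallest p-values were Adig and Cd36 at 1.25-fold and 1.12-fold, Ttn and Neb at 1.21-fold and 1.16-fold, Egfl7 and Esam at 1.14-fold and 1.15-fold, and the myelin genes Prx and Mag at 0.744-fold and 0.637-fold (edgeR adjusted p from 0.141 to 0.551).

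**Figure D5:**
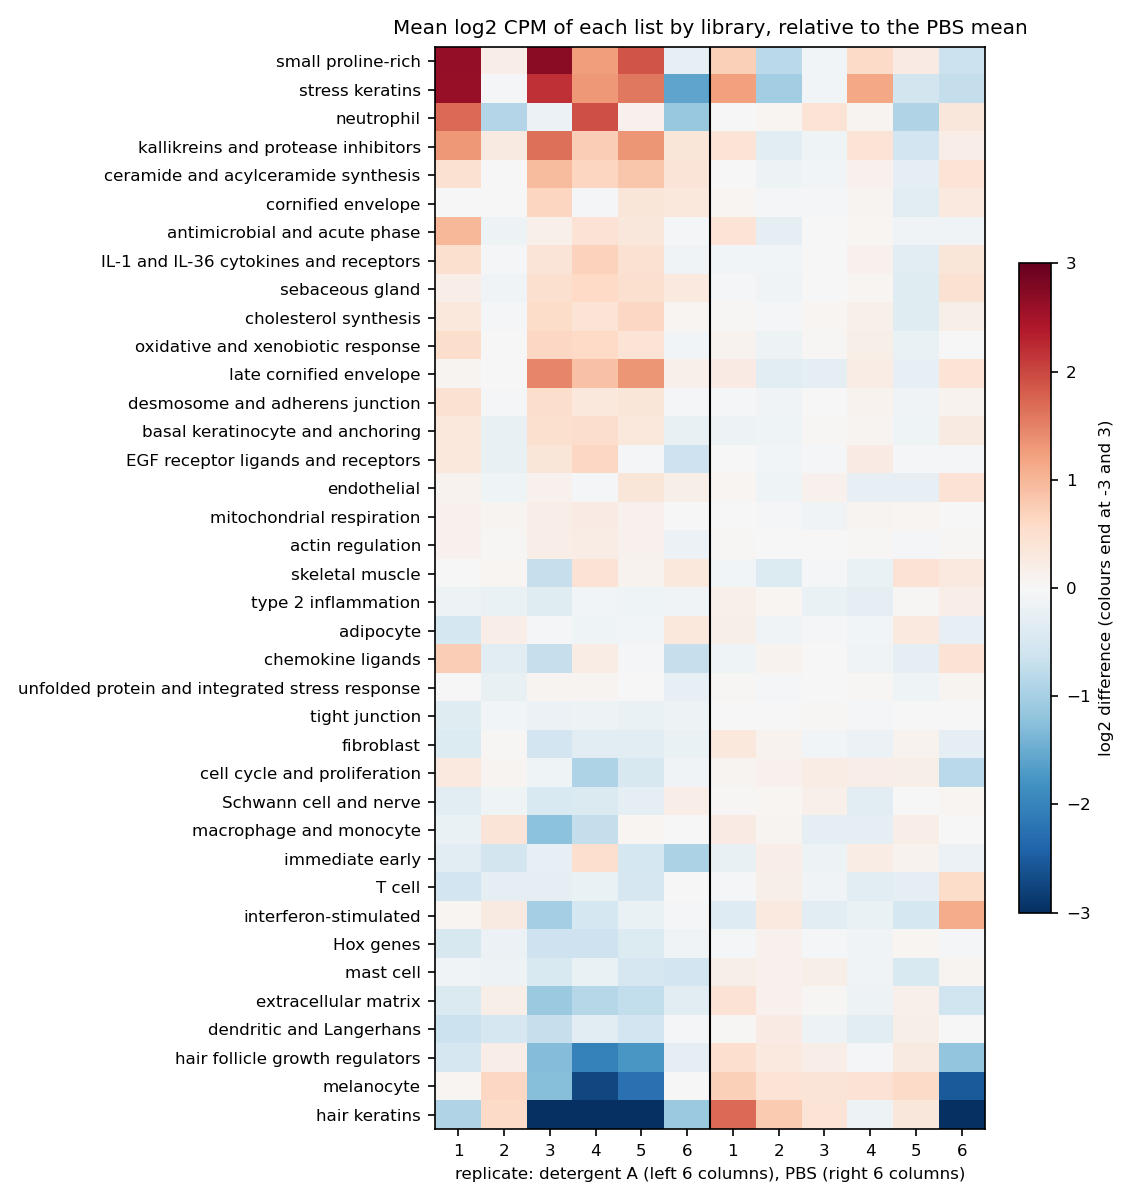
Mean log2 CPM of the members of each of 38 gene lists (rows) in each library (columns, detergent A replicates 1 to 6 left of the line and PBS replicates 1 to 6 right of it), relative to the PBS mean. Red is above and blue below the PBS mean, and colours end at -3 and 3; in the small proline-rich row detergent A replicates 1, 3, 4 and 5 lie between 1.25 and 2.71 and replicates 2 and 6 at 0.21 and -0.25, and PBS replicate 6 is at -3.10 in the hair keratins row.

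The 32 called genes were also compared between the detergents. By edgeR 0 genes passed for detergent B against detergent A (0% of 16836; 550 at an unadjusted p under 0.05), as with DESeq2 and voomWithQualityWeights, and of the 32 called genes 27 had an unadjusted p of at least 0.05. Degs2 had 75.5, 93.0 and 119 CPM with detergent B, against 39.1, 71.0 and 118 CPM with detergent A, and Il1f8 had 94.5, 122 and 133 CPM with detergent B, against 54.0, 83.6 and 156 CPM with detergent A (lowest, median, highest). The lowest detergent B library was thus above the lowest detergent A library for both. The 5 genes with an unadjusted p under 0.05 were Hic1, Selenom, Creb3l1, Sdf2l1 and Pagr1a, each nearer to PBS with detergent B, with log2 differences of 0.59, 0.30, 0.27, 0.27 and 0.19 (edgeR adjusted p of at least 0.989). The 32 genes were chosen by their detergent A values, which also enter this comparison. Levels nearer to PBS with detergent B are therefore partly expected from that choice. By log2 difference, 21 of the 23 called genes that fell were higher with detergent B, towards PBS. Of the 9 that rose, 7 were also higher with detergent B, away from PBS. A missed threshold does not show that the detergents act alike.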

How the data were processed

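Counts per gene in mouse skin libraries were analysed as deposited. The authors made these counts with STAR and featureCounts on the GRCm38.p5 build, per the submitters' processing notes; the sources used here give no tool version, strand setting or handling of multiply mapping reads, so family members, overlapping and antisense genes are uncertain. Each library lists 41605 gene IDs, 41519 of them matched to GENCODE M21 (GRCm38) for symbols, coordinates and transcript GC, taken from the longest transcript in place of the merged exons first planned. Totals ran from 18038267 to 25168277 counts with detergent A, against 18132226 to 29599018 with PBS, and every library kept at least 99.886% of its counts in the 16836 genes passing filterByExpr.

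Genes were tested with edgeR 4.0.16 (R 4.3.3; TMM, robust quasi-likelihood fit, group as the only term, all 18 libraries, 15 residual degrees of freedom). CPM use the TMM-scaled library sizes, and list scores use log2 CPM with a prior count of 2. The SE of a log2 fold change is its absolute value over the root of F. In a simulation of detergent A against PBS with 16836 genes, 70 of 98 genes changed 2-fold and 39 of 102 changed 1.5-fold were recovered, with 3 false among 112 calls. It drew each gene independently, without the hair and GC differences between these libraries, so its rates need not hold here. The GC trend was tested by exact permutation (scipy 1.17.1). Promoter windows are RefSeq sequences of GRCm38.p6, shown for 2 genes that rose and for the 2 largest decreases with a RefSeq start near the GENCODE start.

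Named were all called genes, with levels for the 9 that rose and the 12 largest decreases from a mean of at least 1 CPM, the 2 members of each list with the smallest p, 18 fixed genes, and, chosen after their values were seen, the ends of list ranges and the Gsta neighbours. Results of some genes are not reported here. The comparison, the members, the gene lists and the GC trend test were chosen with earlier results of these data known. Alternatives were DESeq2 1.42.0 and voomWithQualityWeights (limma 3.58.1), other size factors, no filter, a non-robust fit, 12 libraries, covariates, a replicate block and each library left out. No library was left out of the main analysis. Between replicates within the detergent A and PBS groups the chi-square per gene was at least 8.89, so none of these was a copy of another in its group. Detergent B libraries and pairs across groups were not checked in this way.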

Additional observations from a re-analysis of the deposited data

Results flagged for a closer look

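Of 298 groups of 6 values checked, 20 held a sample far from the other 5, where chance alone flags about 1 in 20 groups. The checked groups were those of each gene the text names by rule, each summed list and the GC trend, and many share genes and libraries. PBS replicate 6 accounted for most of them. Its levels, against the range of the other PBS libraries, were 1218 against 530 to 772 CPM for Lor, 29.7 against 16.2 to 21.2 CPM for Il1f6, 39.2 against 29.2 to 32.5 CPM for Ocln, 32.9 against 8.70 to 16.5 CPM for Isg15 and 5.03 against 1.65 to 2.70 CPM for Cd2. It was low for Plk1, 22.1 against 42.1 to 49.2 CPM, and Mcm2, 38.0 against 67.6 to 84.6 CPM.

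Summed lists set the same library apart. PBS replicate 6 had 5039 CPM of late cornified envelope genes, 1029 CPM of interferon-stimulated genes and 1422 CPM of tight junction genes, all above the other PBS libraries. It had 988 CPM of cell cycle genes and 117 CPM of melanocyte genes, below the other PBS libraries, which had at least 1779 and 589 CPM. The Schwann cell and nerve sum was 193 CPM in PBS replicate 4, against 236 to 252 CPM in the others.

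Other samples apart were Cryaa in detergent A replicate 4 at 1.58 CPM against 0.278 to 0.685 CPM, Cxcl2 in detergent A replicate 1 at 35.7 CPM against 0.380 to 3.79 CPM, and Tslp in detergent A replicate 3 at 4.93 CPM against 1.61 to 2.74 CPM. Neb was low in detergent A replicate 3, at 221 CPM against 308 to 350 CPM, and Mrgprb1 in detergent A replicate 5, at 2.32 CPM against 3.18 to 3.67 CPM. Among PBS libraries, Tslp was at 6.25 CPM in replicate 5 against 1.57 to 3.18 CPM and Creb3l1 at 39.5 CPM in replicate 1 against 27.1 to 31.0 CPM. The causes were not tested.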

How the results depend on the processing

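Higher and lower counts were 484 and 335 by DESeq2 and 1892 and 2022 by voomWithQualityWeights, against 9 and 23. With only the 12 libraries compared, 2 were higher and 22 lower, among them 12 of the 32 genes called with all 18 (1 that rose and 11 that fell; 1 was not tested). Both counts were 0 with the hair keratins covariate, with the GC correction, and with the replicate block without or with the GC correction, where 1822, 2706, 3332 and 2839 genes had an unadjusted p under 0.05 and the smallest adjusted p was 0.053, 0.0952, 0.0926 and 0.19 (edgeR). Replicate numbers gave no clear pairing of the libraries. Same-numbered libraries had correlations of deviations from -0.348 to 0.407, and 0 of 6 correlated best with its own number. These values cannot show whether same-numbered libraries shared a batch. With 1 library left out, 0 to 565 genes were higher and 0 to 343 lower, and the total was 8 without detergent A replicate 4, 21 and 2 without PBS replicates 4 and 5, and 188 without detergent B replicate 4. Other size factors, no filter and a non-robust fit kept both counts within 1.5 times. The GC trend kept its direction and p under 0.05 in every setting tried, from -0.133 to -0.144 with another scaling, filter or prior count. Reversed log2 fold changes, none of a called gene, were Lor, 0.0149 with the GC correction and -0.34 to 0.0201 with 1 library left out; Tslp, 0.19 by voomWithQualityWeights, 0.0755 with the replicate block, 0.0117 with the block and GC correction and -0.33 to 0.34 with 1 library left out; and Mcm2, 0.11 with the hair keratins covariate. List medians kept their sign with the GC correction in 38 of 38 lists, changed it with the hair covariate in 9 (of the hair keratins themselves by construction), and changed it with 1 library left out in 7, all with medians between -0.34 and 0.11; in 12 more lists 1 library left out moved the median by over 1.5 times with the same sign. The causes were not tested. Depth limits genes near 1 CPM, such as the long non-coding RNAs.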
